A study of Mus musculus with 12 samples.

Results

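The 38 genes described here encode parts of T cells and natural killer (NK) cells, and their RNA was measured in splenic B cells sorted from mice with floxed Ebf1. They were chosen by name: 7 genes of the CD3 complex and the T cell co-receptors, 8 of the kinases and adaptors next to the T cell receptor, 6 further surface molecules, 7 NK cell receptors, 5 cytotoxic effectors, 2 T-box transcription factors and 3 secreted factors. All 38 were on the array under the current or an older symbol, as 58 probes of 41174, and all 38 were among the 17134 genes tested. For a gene with several probes the brightest was taken.

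The mice were C57BL/6 animals that carried RERT-Cre, a Cre recombinase made active by tamoxifen, and floxed Ebf1 on 2 alleles (Ebf1 fl/fl) or on 1 allele (Ebf1 +/fl, the heterozygote control). Every animal, controls included, was given tamoxifen citrate (3 mg, on 4 days in a row) and killed on day 10 of the experiment. The B cells were measured at rest or after stimulation with LPS, the bacterial endotoxin, which activates mouse B cells through TLR4. This gives 4 groups of 3 one-colour arrays: LPS fl/fl, LPS +/fl, resting fl/fl and resting +/fl. Neither the dose nor the duration of LPS is in the labels, which name a B220+AA4.1- sort and, narrower, a CD21lo sort (B220+AA4.1-CD21lo) without assigning samples to either, and B220 is not confined to B cells. The labels speak of triplicates but not of animals, so the p-values below rest on a spread between arrays that may be purely technical. How much of the floxed allele was lost was not measured, and every genotype comparison is between 2 floxed alleles and 1.

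Ebf1 is a transcription factor that commits lymphoid precursors to the B lineage and keeps genes of other lineages silent in B cells. T cells read antigen through the T cell receptor, whose CD3 chains carry tyrosine motifs that Lck phosphorylates and Zap70 then binds. NK cells have no such rearranged receptor. They kill with perforin and granzymes under the control of activating and inhibitory surface receptors, and the T-box factors Eomes and Tbx21 drive their development. A few of these genes are not exclusive to T and NK cells: mouse B cells carry CD2, and Tbx21 can be induced in activated B cells.

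Levels are given on a log2 scale on which 0 is the 75th percentile of the array, so a difference of 1 is a 2-fold change. The 12 arrays lay on 3 slides of 4, and arrays of 1 group correlated at 0.969 to 0.988 over all genes. On LPS fl/fl replicate 2, 83.2% of spots exceeded background clearly, and on the remaining arrays 54.4% to 61.4% did. RNA of these genes was measurable in the sorted cells: 38 of 38 genes were well above background on each resting array, 37 on 5 of the LPS arrays and 34 on LPS +/fl replicate 3. Cd160 was well above background on no LPS array, and Klrk1, Trat1 and Ubash3a on 2 of 3 LPS +/fl arrays. The lists of 10 B cell, 6 T cell and 5 NK cell markers were each complete on all 12 arrays, so no defining T or NK marker was absent. In sorted cells measured in bulk, fewer T or NK cells and less RNA per cell cannot be told apart, and this holds for every difference below. The precision is limited by 3 arrays per group.

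After LPS, the NK receptor and cytotoxic genes had the lowest median responses of the 8 role groups in both genotypes. In fl/fl cells 17 of 38 fell and 1, Cd8a, rose, while 25.4% of all genes tested fell and 30.2% rose (limma, Benjamini-Hochberg adjusted p under 0.05). In +/fl cells 28 of 38 fell and 0 rose, while 27% of all genes fell and 30.7% rose. The median difference of the 38 genes was -0.52 for fl/fl and -1.53 for +/fl cells. Over all genes it was 0.075 for fl/fl and -0.019 for +/fl cells. The fitted mean was at least 2-fold lower after LPS for 14 genes in fl/fl cells and for 28 in +/fl cells. The share of all genes past this 2-fold limit was not counted. A mean above that of resting cells was seen for 10 of 38 genes in fl/fl cells, against 53.1% of all genes, and for 1, Icos, in +/fl cells, against 49.3%. The values did not overlap, with LPS below resting, for 18 genes in fl/fl cells (28.2% of all genes) and 26 in +/fl cells (31.8%).

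**Figure D1:**
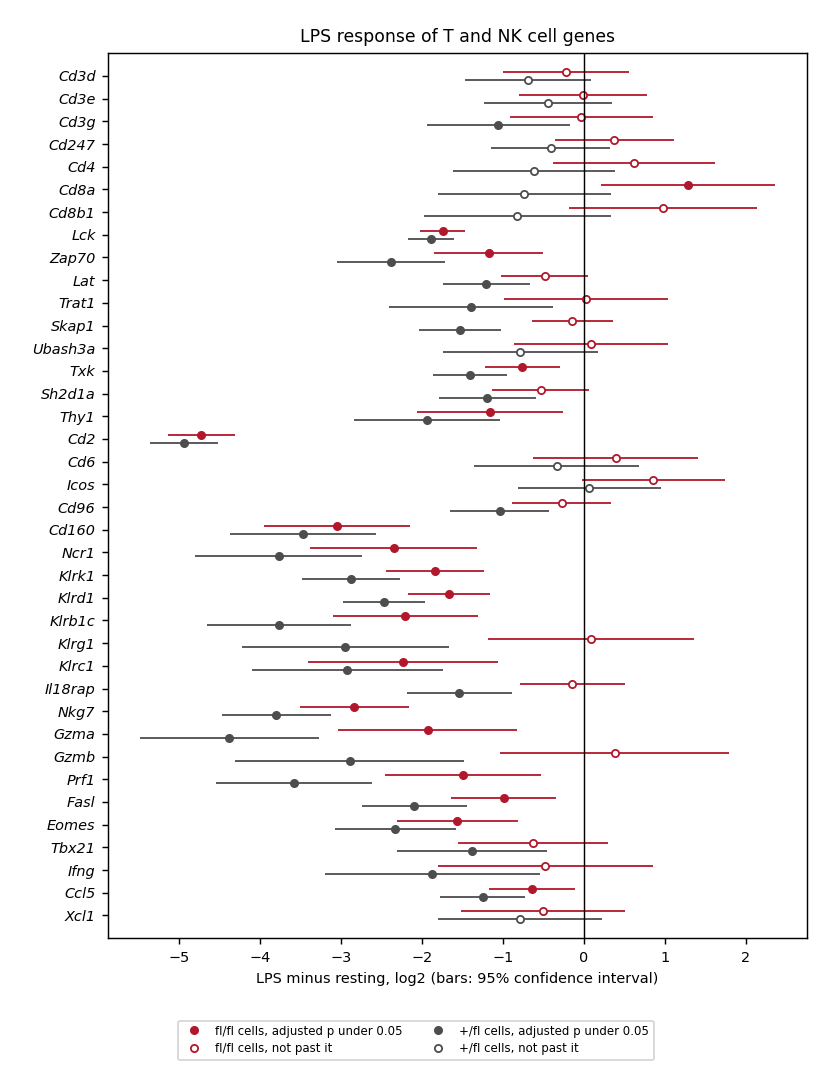
LPS response of the 38 genes in fl/fl cells (red) and +/fl cells (grey). Points are the fitted difference LPS minus resting in log2, bars its 95% confidence interval, and filled points passed an adjusted p of 0.05. The points of Cd160 are fitted values, while the text gives its bound. The filled points of NK receptor and cytotoxic genes lie far left of 0, and grey points lie left of red ones for all 38 genes.

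Between genotypes after LPS, 37 of 38 genes had a higher mean in LPS fl/fl cells than in LPS +/fl cells, where 54% of all genes did. Lck was the exception at -0.055. For 28 of 38 genes all 3 fl/fl arrays read above all 3 +/fl arrays, against 15.3% of all genes, and for 0 of 38 the reverse held, against 17.9%. The median difference was 0.86, with 0.038 over all genes. Gene by gene the limma test passed for 1 of 38, Klrk1, against 1.64% of all genes (0.864% higher and 0.776% lower). Scaling each array to its median moved all genes alike, to a median of 0.34 for the 38 genes and -0.48 for all genes, so the gap between them was 0.82 under both scalings. With slide as a block the median was 0.46 and the gap 0.42. Slide 2 alone held both LPS genotypes, with 1 array each, and there the median was 0.33 with 31 of 38 genes above 0. Without LPS fl/fl replicate 2, the array that stood apart, the median was 0.73, 37 of 38 were above 0 and no gene passed.

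In resting cells no gene of the 38 passed between genotypes on its brightest probe, against 8.84% of all genes (4.66% higher and 4.18% lower). The median difference, resting fl/fl minus resting +/fl, was -0.17, and 14 of 38 genes were above 0, against 55.1% of all genes. This median turned to 0.094 without resting +/fl replicate 3. Without resting +/fl replicate 2, 4 genes passed, all lower in resting fl/fl cells: Cd8a, Cd8b1, Trat1 and Thy1. The share of all genes that passed in that fit is not given here, so the 4 may be no more than that share. Within slides 1, 2 and 3 the median of the single pair of arrays was 0.32, -0.23 and -0.47.

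The interaction, which sets the LPS response of fl/fl cells against that of +/fl cells, was above 0 for 38 of 38 genes, against 51% of all genes, with a median of 0.84. Without resting +/fl replicate 3 it was above 0 for 37 of 38, with a median of 0.81. None passed in limma at an adjusted p of 0.05, where 0.163% of all genes did (0.105% above 0 and 0.0584% below). Scaling to the array median gave 0.30 for the 38 genes and -0.53 for all genes, a gap of 0.83 as before. With slide as a block the median was 0.46 and the gap 0.45. The 4 differences are built from the same 12 arrays: the genotype difference after LPS and the LPS response of +/fl cells share the LPS +/fl arrays.

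**Figure D2:**
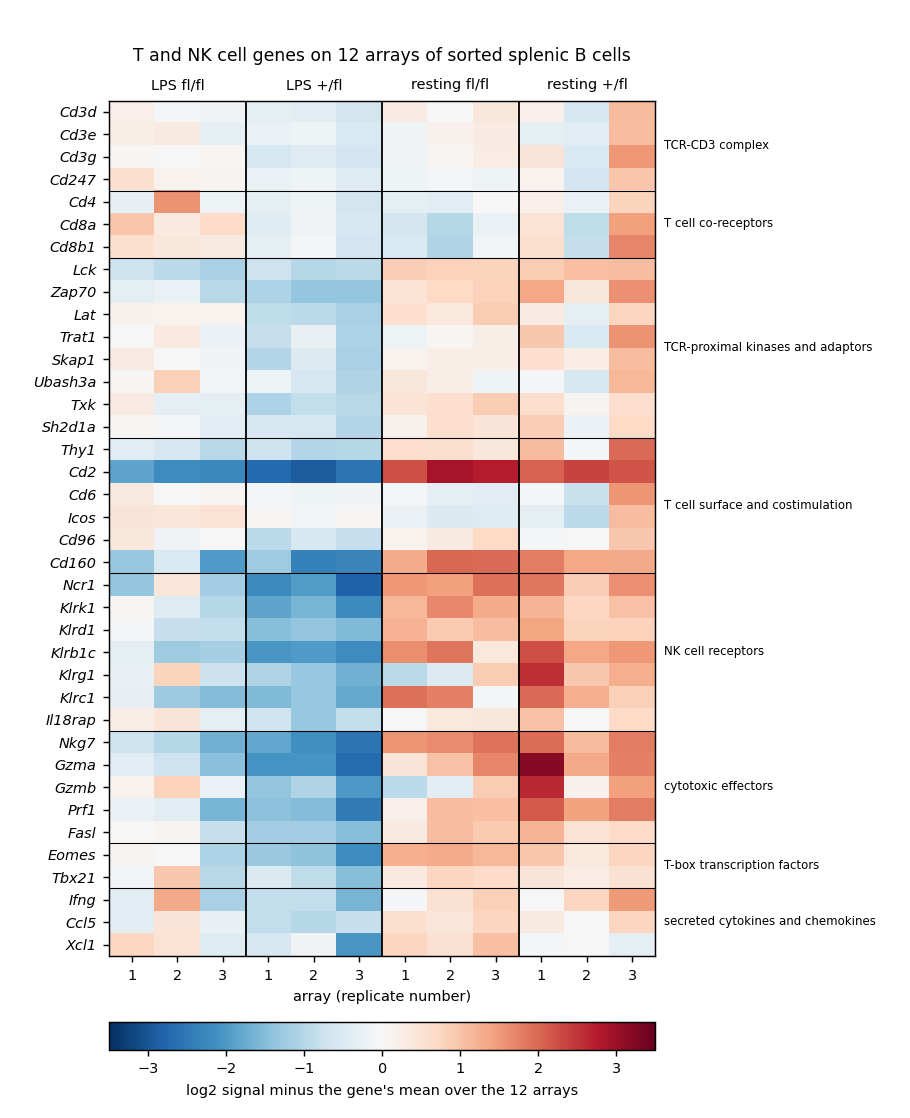
Level of each of the 38 genes (rows, by role) on each of the 12 arrays (columns, by group and replicate number), as log2 signal minus the gene's mean over the 12 arrays; red is above that mean and blue below it. The LPS +/fl columns are bluest, and among the resting columns +/fl replicate 3 is reddest for CD3 and co-receptor genes and +/fl replicate 1 for cytotoxic genes.

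The CD3 complex had the smallest median LPS response of the 8 role groups, -0.02 for fl/fl and -0.57 for +/fl cells. Without resting +/fl replicate 3 the median for +/fl cells was -0.12, and the response there was -0.25 for Cd3d, 0.034 for Cd3e, -0.54 for Cd3g and 0.0027 for Cd247. Cd3d, Cd3e and Cd3g are the CD3 delta, epsilon and gamma chains, and Cd247 is the zeta chain, which carries several of the tyrosine motifs. The Cd3d probe on the array, and 1 of the probes of Cd247, lie in coding sequence that encodes such motifs; they are printed to show what was hybridised. Capitals mark a tyrosine codon, 2 further codons and a leucine codon, the spacing of an immunoreceptor tyrosine-based activation motif. A run of this kind in a frame without a stop codon was found in 6.7% of all probes. The probes are on the plus strand of mm7, at chr9:44920433-44920664 and chr1:165827148-165828166, spans longer than the 60 bases of the probe.
Cd3d probe: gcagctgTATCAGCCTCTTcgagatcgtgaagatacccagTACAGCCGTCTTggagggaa
Cd247 probe: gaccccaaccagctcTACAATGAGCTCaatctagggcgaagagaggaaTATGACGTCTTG
Each probe holds 2 such runs. The Cd247 values in the text come from another, brighter probe of that gene.

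Cd3d read 1.24, 1.01 and 0.94 in LPS fl/fl cells and 0.71, 0.65 and 0.40 in LPS +/fl cells, against 1.34, 1.04 and 1.46 in resting fl/fl cells and 1.23, 0.44 and 2.17 in resting +/fl cells. Its LPS response was -0.22 in fl/fl cells (adjusted p 0.63) and -0.69 in +/fl cells (adjusted p 0.116). After LPS the 3 fl/fl arrays were above the 3 +/fl arrays, with a difference of 0.48 ± 0.35 (SE, adjusted p 0.44). Cd3e, read at chr9:44933516-44933575 in mm7, had a level of -2.49, -2.40 and -3.02 in LPS fl/fl cells and -2.95, -2.87 and -3.26 in LPS +/fl cells, against -2.85, -2.58 and -2.44 in resting fl/fl cells and -3.03, -3.09 and -1.62 in resting +/fl cells. Its LPS +/fl values overlapped those of resting +/fl cells, and its response there was -0.44 (adjusted p 0.313). Cd3g read -0.38, -0.44 and -0.35 in LPS fl/fl cells and -1.06, -0.88 and -1.10 in LPS +/fl cells, against -0.55, -0.37 and -0.16 in resting fl/fl cells and 0.011, -0.97 and 1.09 in resting +/fl cells. Of the 4 chains it alone passed a test, with a difference of -1.06 in LPS +/fl cells against resting +/fl cells (adjusted p 0.0419). That call was lost in 20 alternatives, among them the slide block (-0.76, adjusted p 0.098) and the fit without resting +/fl replicate 3 (-0.54). Cd247 read 0.078, -0.34 and -0.39 in LPS fl/fl cells and -0.70, -0.63 and -0.94 in LPS +/fl cells. In the resting state its values were -0.62, -0.53 and -0.64 with fl/fl alleles and -0.36, -1.16 and 0.48 with +/fl alleles, so that it was higher after LPS on every fl/fl array. Its interaction was 0.79 ± 0.47 (SE, adjusted p 0.362), and 0.37 (adjusted p 0.555) without resting +/fl replicate 3.

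Resting +/fl arrays differed widely from one another for these chains. All 4 CD3 genes were highest, among resting arrays, on resting +/fl replicate 3, which exceeded replicate 2 by a median of 1.68 (range 1.47 to 2.05). The same 2 arrays differed by a median of -0.055 over all genes tested. Of all genes, 13.1% were highest on resting +/fl replicate 3 among the resting arrays.

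Cd4 encodes the co-receptor of helper T cells, and Cd8a and Cd8b1 the 2 chains of CD8 on cytotoxic T cells. All 3 had higher means in LPS fl/fl cells than in resting fl/fl cells (median 0.98), and all 3 had lower means in LPS +/fl cells than in resting +/fl cells (median -0.73). Without resting +/fl replicate 3 that median was -0.21, with -0.19 for Cd8a, -0.21 for Cd8b1 and -0.35 for Cd4. Cd8a, at chr6:71395267-71395326, read 0.29, -0.34 and -0.032 in LPS fl/fl cells and -1.11, -0.82 and -1.30 in LPS +/fl cells, against -1.32, -1.70 and -0.93 in resting fl/fl cells and -0.19, -1.57 and 0.74 in resting +/fl cells. No LPS fl/fl value reached as low as any resting fl/fl value. The rise was 1.29 ± 0.48 (SE, a 2.45-fold change, adjusted p 0.0432), and it did not pass with slide as a block (0.96, adjusted p 0.106), with scaling to the array median (0.99, adjusted p 0.151) or in 12 other alternatives. The difference of -0.73 in +/fl cells did not pass (adjusted p 0.221). In a limma fit over all kept probes, the dimmer Cd8a probes were also higher in LPS fl/fl than in resting fl/fl cells. The differences were 1.98 (adjusted p 0.0031) and 1.04 (adjusted p 0.0735). For resting fl/fl minus resting +/fl cells the same probes gave -1.65 (adjusted p 0.0477) and -0.91 (adjusted p 0.221). The interaction of Cd8a on its brightest probe was 2.02 ± 0.68 (95% confidence interval 0.50 to 3.55, adjusted p 0.155), and without resting +/fl replicate 2 it was the 1 gene of the 38 whose interaction passed (2.64, adjusted p 0.0418). Without resting +/fl replicate 3 the interaction was 1.48 (adjusted p 0.213).

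Cd8b1, at chr6:71355005-71355063, read 2.62, 2.45 and 2.36 in LPS fl/fl cells and 1.74, 2.002 and 1.39 in LPS +/fl cells, against 1.53, 1.01 and 1.96 in resting fl/fl cells and 2.61, 1.23 and 3.76 in resting +/fl cells. It lay above the resting fl/fl values on every LPS fl/fl array, with a difference of means of 0.98 ± 0.52 (SE, adjusted p 0.14) that did not pass, and its interaction was 1.80 (adjusted p 0.216). Without resting +/fl replicate 3 the LPS response in fl/fl cells passed (0.98, adjusted p 0.0455). A second probe assigned to Cd8b1 by the array's annotation maps to chromosome 5 in mm7, unlike the first on chromosome 6, and gave -0.56 for the same response. Cd4 read -4.51, -2.67 and -4.40 in LPS fl/fl cells and -4.54, -4.39 and -4.87 in LPS +/fl cells, against -4.58, -4.64 and -4.22 in resting fl/fl cells and -4.05, -4.46 and -3.44 in resting +/fl cells. Its mean in LPS fl/fl cells rests on replicate 2, the array with the high share of bright spots, at -2.67. The co-receptors also set the resting +/fl arrays apart: replicate 3 exceeded replicate 2 by 1.02 to 2.53, and all 3 genes were highest there among resting arrays.

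**Figure D3:**
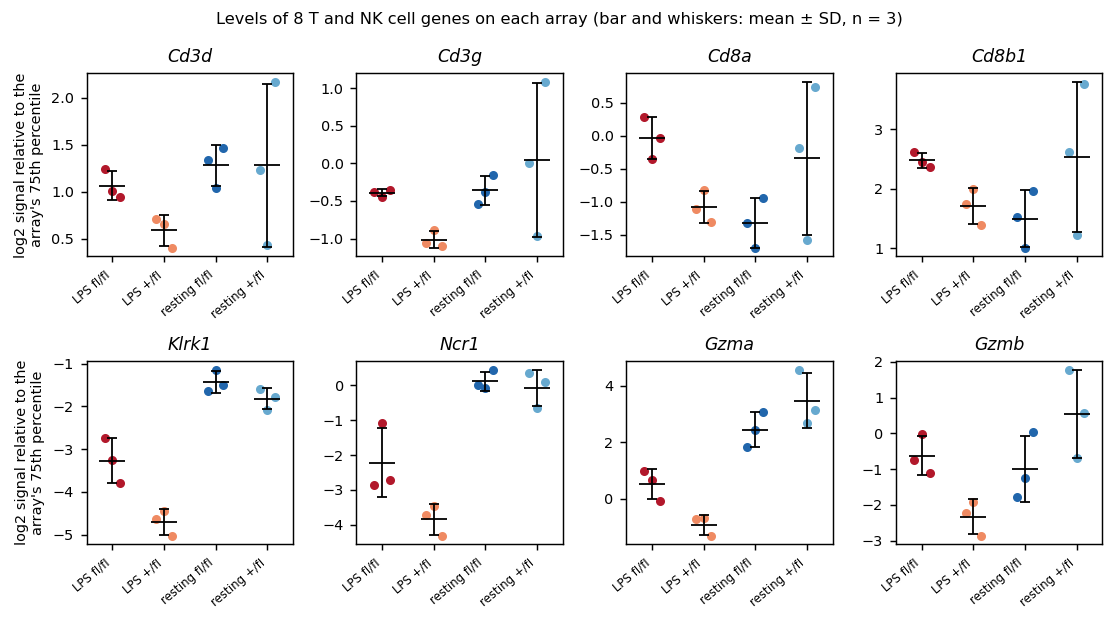
Levels of 8 of the genes on every array, on the log2 scale of the text; points are arrays in the order of their replicate numbers, bars and whiskers the mean ± SD of 3 arrays. Cd8a and Cd8b1 sit higher in LPS fl/fl than in resting fl/fl cells, Klrk1, Ncr1 and Gzma sit lower, and the whiskers of Cd3d, Cd3g, Cd8a and Cd8b1 are longest in resting +/fl cells.

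Among the kinases and adaptors of T cell receptor signalling, 3 of 8 fell after LPS in fl/fl cells and 7 of 8 in +/fl cells, with medians of -0.51 in fl/fl and -1.40 in +/fl cells. Of all genes 25.4% fell in fl/fl and 27% in +/fl cells, so the 3 of 8 lie near the share of all genes. Lck, the Src-family kinase that phosphorylates the CD3 chains, fell in both genotypes. It read 1.84, 1.64 and 1.43 in LPS fl/fl cells and 1.86, 1.59 and 1.63 in LPS +/fl cells, against 3.42, 3.38 and 3.34 in resting fl/fl cells and 3.46, 3.62 and 3.66 in resting +/fl cells. The LPS response was -1.75 ± 0.12 in fl/fl cells (SE, adjusted p 1.67e-06) and -1.89 ± 0.12 in +/fl cells (SE, adjusted p 9.19e-07), and the 95% confidence interval of its interaction ran from -0.25 to 0.54. Zap70, the kinase recruited to phosphorylated CD3, read -0.999, -0.88 and -1.63 in LPS fl/fl cells and -1.73, -2.01 and -1.997 in LPS +/fl cells, against -0.18, 0.045 and 0.16 in resting fl/fl cells and 0.71, -0.26 and 0.96 in resting +/fl cells. In both genotypes all LPS arrays lay below all resting arrays, with differences of -1.17 for fl/fl (adjusted p 0.00743) and -2.38 for +/fl cells (adjusted p 7.49e-05). The interaction was 1.21 (adjusted p 0.168). Txk, a Tec-family kinase of T cells, read 0.43, -0.17 and -0.20 in LPS fl/fl cells and -0.96, -0.72 and -0.84 in LPS +/fl cells, against 0.60, 0.73 and 1.01 in resting fl/fl cells and 0.75, 0.22 and 0.72 in resting +/fl cells. It also fell in both, with differences of -0.76 for fl/fl (adjusted p 0.00995) and -1.41 for +/fl cells (adjusted p 0.00021).

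Lat, the membrane scaffold that Zap70 phosphorylates, fell in +/fl cells. It read 0.10, 0.078 and 0.073 in LPS fl/fl cells and -0.94, -0.95 and -1.17 in LPS +/fl cells, against 0.53, 0.33 and 0.85 in resting fl/fl cells and 0.24, -0.39 and 0.70 in resting +/fl cells. The 3 LPS fl/fl arrays were close together and lay above each LPS +/fl array, a difference of 1.10 ± 0.24 (SE, 2.15-fold, adjusted p 0.0543), which did not pass. With the trended, robust variance model it passed (adjusted p 0.0225), as did Skap1, Txk, Klrd1 and Eomes beside Klrk1. Lat also passed in a limma fit to only the 6 LPS arrays (adjusted p 0.0451). With normexp background correction it passed as it came (0.0453) and repaired (0.0409). The same held with all 12 arrays above background (0.0297) and without resting +/fl replicate 2 (0.0242) or 3 (0.0409). Its LPS response was -0.49 in fl/fl cells (adjusted p 0.114) and -1.21 in +/fl cells (adjusted p 0.0016). Skap1, an adaptor that links the receptor to integrins, read 1.10, 0.80 and 0.68 in LPS fl/fl cells and -0.22, 0.33 and -0.33 in LPS +/fl cells, against 0.93, 1.03 and 1.04 in resting fl/fl cells and 1.41, 1.08 and 1.88 in resting +/fl cells. LPS fl/fl values sat next to those of resting fl/fl cells, while LPS +/fl values lay below all others. The response was -0.14 in fl/fl cells (adjusted p 0.628) and -1.53 in +/fl cells (adjusted p 0.000223). Its interaction of 1.39 ± 0.32 had the smallest adjusted p of the 38 genes, 0.089, and passed only with the trended, robust variance model (0.0388).

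Sh2d1a, the adaptor SAP of the SLAM receptors, read -0.74, -0.88 and -1.17 in LPS fl/fl cells and -1.39, -1.42 and -1.83 in LPS +/fl cells, against -0.64, -0.19 and -0.36 in resting fl/fl cells and 0.066, -1.01 and -0.11 in resting +/fl cells. It fell in +/fl cells (-1.19, adjusted p 0.00338) and its change of -0.53 in fl/fl cells did not pass (adjusted p 0.121). Trat1, a transmembrane adaptor of the receptor complex, was dim. It read -3.98, -3.64 and -4.20 in LPS fl/fl cells and -4.78, -4.25 and -5.10 in LPS +/fl cells, against -4.17, -3.92 and -3.79 in resting fl/fl cells and -3.04, -4.51 and -2.40 in resting +/fl cells. Its fall of -1.39 in +/fl cells (adjusted p 0.0234) was lost in 14 alternatives and its other probe went the other way there, by 0.25. Ubash3a, a negative regulator of receptor signalling, passed no test, with responses of 0.091 for fl/fl and -0.78 for +/fl cells.

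The further T cell surface genes split by gene. Cd2, an adhesion molecule of T and NK cells that mouse B cells also carry, had the largest LPS response of the 38. It read -0.61, -0.96 and -1.01 in LPS fl/fl cells and -1.48, -1.66 and -1.31 in LPS +/fl cells, against 3.49, 4.13 and 3.99 in resting fl/fl cells and 3.30, 3.62 and 3.46 in resting +/fl cells. All LPS arrays lay far below all resting arrays, with differences of -4.73 ± 0.19 in fl/fl cells (SE, 26.5-fold, adjusted p 6.87e-08) and -4.94 ± 0.19 in +/fl cells (SE, 30.7-fold, adjusted p 5.58e-08). The interaction was 0.21 (95% confidence interval -0.38 to 0.80). Thy1, the classical surface antigen of mouse T cells, read 0.75, 0.56 and 0.17 in LPS fl/fl cells and 0.41, 0.11 and 0.12 in LPS +/fl cells, against 1.74, 1.70 and 1.53 in resting fl/fl cells and 2.25, 1.10 and 3.12 in resting +/fl cells. After LPS it fell, with differences of -1.16 for fl/fl (adjusted p 0.0318) and -1.94 for +/fl cells (adjusted p 0.00207). The call in fl/fl cells was lost in 8 alternatives.

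Cd96, a receptor for nectin-like ligands on T and NK cells, read -1.02, -1.54 and -1.41 in LPS fl/fl cells and -2.33, -1.98 and -2.22 in LPS +/fl cells, against -1.31, -1.10 and -0.74 in resting fl/fl cells and -1.50, -1.44 and -0.47 in resting +/fl cells. The fall passed in +/fl cells (-1.04, adjusted p 0.00832) and not in fl/fl cells (-0.28, adjusted p 0.429). Cd160, a receptor of cytotoxic lymphocytes, read -6.25, -5.47 and -6.92 in LPS fl/fl cells and -6.18, -7.28 and -7.24 in LPS +/fl cells, against -3.63, -2.92 and -2.93 in resting fl/fl cells and -3.12, -3.57 and -3.60 in resting +/fl cells. Since no LPS array was well above background, its folds are lower bounds under the main processing. Cd160 was at least 5.71-fold lower after LPS in fl/fl cells and at least 4.06-fold lower in +/fl cells. The limma test of the fitted differences gave an adjusted p of 0.000114 in fl/fl and 4.22e-05 in +/fl cells. In the alternatives the smallest fitted difference was -0.61 in fl/fl and -0.49 in +/fl cells. A bound sets the brighter group's mean against the lowest signal among probes well above background, or the dim probe's own where that is higher. All bounds given here belong to the main processing. Cd6, a scavenger-receptor family molecule of T cells, and Icos, a costimulatory receptor, passed no test. Their LPS responses were 0.39 and 0.86 in fl/fl cells and -0.33 and 0.067 in +/fl cells, and both were highest among the resting arrays on +/fl replicate 3. Without that array the rise of Icos passed in fl/fl cells (0.86, adjusted p 0.0012) and in +/fl cells (0.64, adjusted p 0.0109). Cd6 passed in neither (adjusted p 0.106 in fl/fl and 0.224 in +/fl cells).

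Of the NK cell receptors, 5 of 7 fell in fl/fl cells (median -1.84), against 25.4% of all genes. In +/fl cells 7 of 7 fell (median -2.92), against 27% of all genes. The 2 that did not pass in fl/fl cells were Klrg1 and Il18rap. Ncr1, the NKp46 receptor that marks NK cells in mice, read -2.87, -1.08 and -2.73 in LPS fl/fl cells and -3.73, -3.46 and -4.33 in LPS +/fl cells, against 0.0032, -0.068 and 0.44 in resting fl/fl cells and 0.36, -0.65 and 0.10 in resting +/fl cells. The resting groups overlapped and both lay above every LPS array. The LPS response was -2.35 ± 0.46 in fl/fl cells (SE, 5.1-fold, adjusted p 0.00156) and -3.77 ± 0.46 in +/fl cells (SE, 13.7-fold, adjusted p 6.05e-05). Klrb1c, the NK1.1 antigen of C57BL/6 mice, read -0.93, -1.84 and -1.76 in LPS fl/fl cells and -2.62, -2.56 and -2.78 in LPS +/fl cells, against 1.03, 1.27 and -0.21 in resting fl/fl cells and 1.66, 0.76 and 0.93 in resting +/fl cells. Both genotypes showed a fall, of -2.21 for fl/fl (adjusted p 0.00093) and -3.77 for +/fl cells (adjusted p 2.18e-05). All LPS fl/fl values of both genes exceeded all LPS +/fl values, with differences of 1.61 and 1.14 that did not pass (adjusted p 0.102 and 0.15).

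Klrk1, the activating receptor NKG2D, was the 1 gene of the 38 that passed between genotypes after LPS in the main fit. Other genes, Lat among them, passed in some alternatives. It read -2.74, -3.26 and -3.80 in LPS fl/fl cells and -4.64, -4.44 and -5.03 in LPS +/fl cells, against -1.64, -1.14 and -1.49 in resting fl/fl cells and -1.60, -2.09 and -1.78 in resting +/fl cells. LPS fl/fl cells were higher by 1.44 ± 0.27 (SE, 2.71-fold, adjusted p 0.039), with no overlap, but LPS +/fl cells were well above background on 2 of 3 arrays. The call was kept in 6 of 26 alternatives. With quantile normalization the difference was 0.72 (adjusted p 0.445), with slide as a block 1.18 (0.202), with normexp background correction 0.24 (0.405) and without LPS fl/fl replicate 2 it was 1.43 (0.0682). Fitted with only the 6 LPS arrays it did not pass (adjusted p 0.11), and with the replicate block neither (0.083). The LPS response of Klrk1 was -1.84 in fl/fl cells (adjusted p 0.000231) and -2.88 in +/fl cells (adjusted p 9.34e-06).

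Klrd1, or CD94, pairs with Klrc1, or NKG2A, as an inhibitory receptor. Klrd1 read 1.88, 1.14 and 1.09 in LPS fl/fl cells and 0.47, 0.57 and 0.40 in LPS +/fl cells, against 3.18, 2.88 and 3.05 in resting fl/fl cells and 3.33, 2.75 and 2.76 in resting +/fl cells. Klrc1 read -1.04, -2.02 and -2.28 in LPS fl/fl cells and -2.31, -2.10 and -2.55 in LPS +/fl cells, against 1.17, 0.999 and -0.80 in resting fl/fl cells and 1.23, 0.50 and 0.083 in resting +/fl cells. Klrd1 fell, with differences of -1.67 for fl/fl (adjusted p 0.000134) and -2.47 for +/fl cells (adjusted p 7.79e-06). Klrc1 fell, with differences of -2.24 for fl/fl (adjusted p 0.00464) and -2.92 for +/fl cells (adjusted p 0.000844), and its resting fl/fl replicate 3 lay well below the other 2 arrays of that group. Klrb1c and Klrc1 have close copies in the genome, and hybridisation of those copies to the probes was not tested.

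Klrg1 and Il18rap passed the test in +/fl cells and not in fl/fl cells. Klrg1, an inhibitory receptor of mature NK and effector T cells, read -2.37, -1.32 and -2.86 in LPS fl/fl cells and -3.16, -3.42 and -3.78 in LPS +/fl cells, against -3.04, -2.57 and -1.22 in resting fl/fl cells and 0.47, -1.16 and -0.83 in resting +/fl cells. Its LPS response was 0.091 in fl/fl cells (adjusted p 0.906) and -2.95 in +/fl cells (adjusted p 0.00133), an interaction of 3.04 ± 0.81 that did not pass (SE, 95% confidence interval 1.23 to 4.84, adjusted p 0.107). All 3 resting fl/fl arrays lay below all 3 resting +/fl arrays, with a difference of -1.77 (adjusted p 0.0794). That resting difference passed in 5 alternatives, with adjusted p from 0.0392 to 0.0494. Il18rap, a chain of the IL-18 receptor, read -2.95, -2.73 and -3.54 in LPS fl/fl cells and -3.88, -4.51 and -4.05 in LPS +/fl cells, against -3.18, -2.83 and -2.79 in resting fl/fl cells and -2.17, -3.17 and -2.49 in resting +/fl cells. The response was -0.14 in fl/fl cells (adjusted p 0.71) and -1.54 in +/fl cells (adjusted p 0.00115), and the interaction 1.40 (adjusted p 0.129).

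The cytotoxic effectors had the lowest median LPS response of the 8 role groups in +/fl cells, where 5 of 5 fell, with a median of -3.59, while 4 of 5 fell in fl/fl cells, with a median of -1.50. The shares of all genes that fell were 27% in +/fl and 25.4% in fl/fl cells. Gzma, granzyme A, read 0.98, 0.66 and -0.078 in LPS fl/fl cells and -0.72, -0.69 and -1.32 in LPS +/fl cells, against 1.84, 2.42 and 3.08 in resting fl/fl cells and 4.57, 2.70 and 3.16 in resting +/fl cells. It fell, with differences of -1.93 ± 0.49 in fl/fl cells (SE, 3.8-fold, adjusted p 0.00749) and -4.38 ± 0.49 in +/fl cells (SE, 20.8-fold, adjusted p 3.42e-05). Gzmb, granzyme B, read -0.74, -0.029 and -1.09 in LPS fl/fl cells and -2.22, -1.91 and -2.87 in LPS +/fl cells, against -1.77, -1.26 and 0.031 in resting fl/fl cells and 1.78, -0.69 and 0.58 in resting +/fl cells. In fl/fl cells the LPS and resting values overlapped (0.38, adjusted p 0.644), and in +/fl cells it fell, with a difference of -2.89 (adjusted p 0.00284). Its interaction was the largest of the 38 genes, 3.27 ± 0.90 (SE, 95% confidence interval 1.27 to 5.27), with an adjusted p of 0.114. Resting +/fl replicate 1, at 1.78, was the highest of the 12 arrays.

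Prf1, the pore-forming perforin, read -1.27, -1.43 and -2.69 in LPS fl/fl cells and -2.50, -2.59 and -3.54 in LPS +/fl cells, against -0.89, 0.0061 and -0.004 in resting fl/fl cells and 1.07, 0.34 and 0.73 in resting +/fl cells. After LPS it fell, with differences of -1.50 for fl/fl (adjusted p 0.0135) and -3.59 for +/fl cells (adjusted p 5.34e-05). Resting fl/fl minus resting +/fl cells gave -1.01 (adjusted p 0.162). That difference passed with normexp background correction as it came (-0.79, adjusted p 0.034) and repaired (-0.95, adjusted p 0.041). Nkg7, a membrane protein of cytotoxic granules, read 0.73, 0.46 and -0.23 in LPS fl/fl cells and -0.37, -0.69 and -1.10 in LPS +/fl cells, against 2.997, 3.13 and 3.35 in resting fl/fl cells and 3.42, 2.57 and 3.26 in resting +/fl cells. Both genotypes showed a fall, of -2.84 for fl/fl (adjusted p 2.38e-05) and -3.80 for +/fl cells (adjusted p 2.95e-06). Fasl, the death ligand of cytotoxic lymphocytes, read -2.02, -1.95 and -2.86 in LPS fl/fl cells and -3.25, -3.27 and -3.54 in LPS +/fl cells, against -1.74, -0.97 and -1.14 in resting fl/fl cells and -0.85, -1.54 and -1.38 in resting +/fl cells. It fell, with differences of -0.99 for fl/fl (adjusted p 0.0146) and -2.10 for +/fl cells (adjusted p 0.000143).

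The resting +/fl arrays differed for the cytotoxic genes too, but not in the pattern of the CD3 genes. All 5 cytotoxic genes and 5 of 7 NK receptors were highest among resting arrays on +/fl replicate 1, where 18.8% of all genes were. Replicate 1 exceeded replicate 3 by a median of 0.54 for cytotoxic genes and 0.57 for NK receptors, while for the CD3 and co-receptor genes it lay below replicate 3 with median differences of -1.01 for CD3 and -0.93 for co-receptor genes. Over the 38 genes the median SD between arrays was 0.43 in LPS fl/fl, 0.24 in LPS +/fl, 0.23 in resting fl/fl and 0.56 in resting +/fl cells. For all genes it was 0.18 in LPS fl/fl, 0.16 in LPS +/fl, 0.21 in resting fl/fl and 0.23 in resting +/fl cells.

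Among T-box and secreted factors 2 of 5 fell after LPS in fl/fl cells and 4 of 5 in +/fl cells. Of all genes 25.4% fell in fl/fl and 27% in +/fl cells, so the 2 of 5 lie near the share of all genes. Eomes, which NK cells and some CD8 T cells require, read -1.72, -1.81 and -2.91 in LPS fl/fl cells and -3.13, -3.23 and -4.04 in LPS +/fl cells, against -0.56, -0.52 and -0.66 in resting fl/fl cells and -0.86, -1.46 and -1.08 in resting +/fl cells. After LPS it fell, with differences of -1.57 for fl/fl (adjusted p 0.00262) and -2.33 for +/fl cells (adjusted p 0.000183). Tbx21, or T-bet, read 1.57, 2.59 and 0.69 in LPS fl/fl cells and 1.16, 0.76 and 0.15 in LPS +/fl cells, against 1.99, 2.41 and 2.32 in resting fl/fl cells and 2.11, 1.92 and 2.19 in resting +/fl cells. It fell in +/fl cells (-1.39, adjusted p 0.0157), and in fl/fl cells LPS replicate 2 exceeded all resting arrays while replicate 3 lay lowest (-0.63, adjusted p 0.231). Ifng, interferon gamma, read -0.56, 1.16 and -1.31 in LPS fl/fl cells and -1.04, -1.05 and -1.81 in LPS +/fl cells, against -0.26, 0.34 and 0.64 in resting fl/fl cells and -0.17, 0.58 and 1.31 in resting +/fl cells. The LPS fl/fl arrays spread by more than 2 log2 units, with a difference from rest of -0.48 (adjusted p 0.528). It fell in +/fl cells (-1.87, adjusted p 0.0206), and the interaction was 1.39 (adjusted p 0.368). Ccl5, a chemokine of T and NK cells, read 4.37, 5.20 and 4.47 in LPS fl/fl cells and 3.87, 3.75 and 3.93 in LPS +/fl cells, against 5.29, 5.17 and 5.49 in resting fl/fl cells and 5.07, 4.77 and 5.48 in resting +/fl cells. Both genotypes showed a fall, of -0.64 for fl/fl (adjusted p 0.0408, lost in 13 alternatives) and -1.25 for +/fl cells (adjusted p 0.00112). Xcl1, or lymphotactin, passed no test, with responses of -0.51 for fl/fl and -0.79 for +/fl cells.

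**Figure D4:**
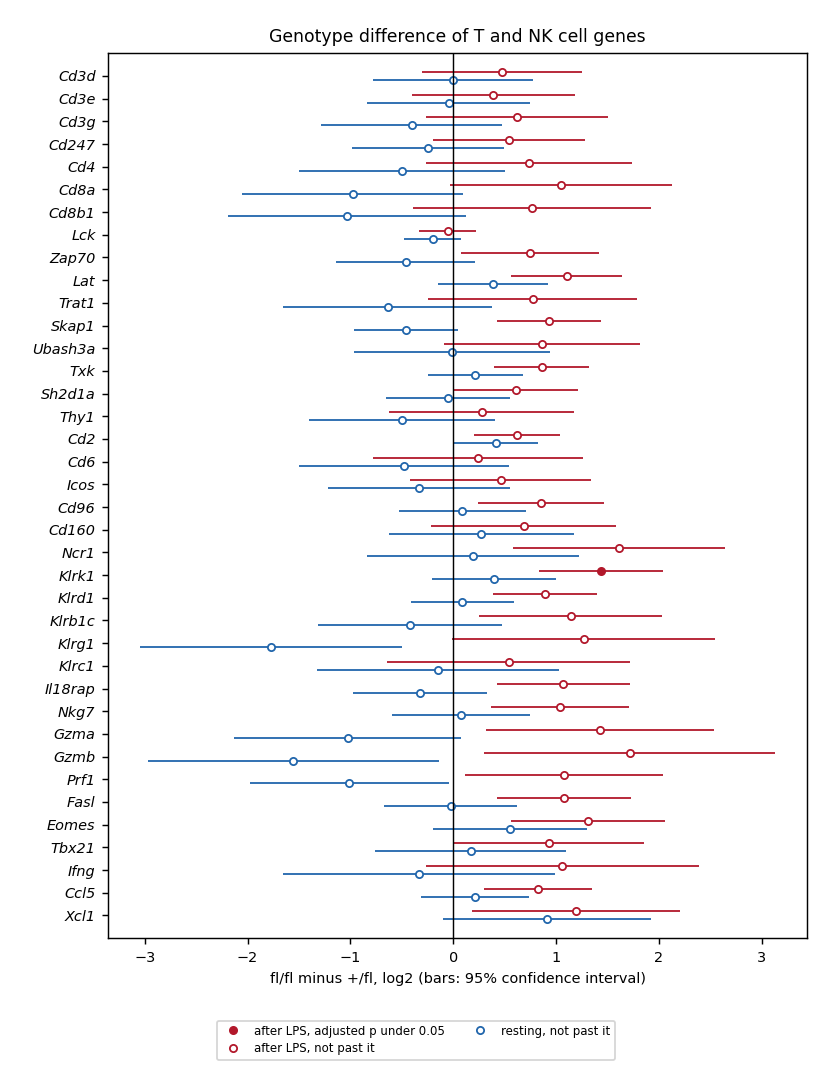
Genotype difference of the 38 genes after LPS (red) and in resting cells (blue). Points are the fitted difference fl/fl minus +/fl in log2, bars its 95% confidence interval, and filled points passed an adjusted p of 0.05. After LPS 37 of 38 points lie right of 0, with Klrk1 filled, and in resting cells 14 of 38 do, with none filled.

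LPS +/fl cells had the lowest mean of the 4 groups for 33 of 38 genes, where 32.7% of all genes had theirs. The highest mean was in resting +/fl cells for 19 genes, in resting fl/fl cells for 14 and in LPS fl/fl cells for 5. Among LPS arrays the highest was LPS fl/fl replicate 1 for 21 genes, replicate 2 for 14 and replicate 3 for 2, and LPS +/fl replicate 1 for Lck. Shares of all genes were not counted for the highest mean or the highest LPS array. Within slides, the median LPS response of the 38 genes was -0.95 on slide 2 and -0.59 on slide 3 in fl/fl cells, and -1.10 on slide 1 and -1.67 on slide 2 in +/fl cells.

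A wider list of 73 other T and NK genes, of which 62 were measured, was counted in the same way. In fl/fl cells 8 rose and 30 fell after LPS, and in +/fl cells 4 rose and 38 fell, against the shares of all genes given above. Il2ra, the IL-2 receptor alpha chain that activated B cells also express, rose most. It read 2.44, 2.22 and 2.41 in LPS fl/fl cells and 1.84, 1.82 and 1.98 in LPS +/fl cells, against -4.85, -5.66 and -5.32 in resting fl/fl cells and -5.20, -5.98 and -4.78 in resting +/fl cells. It was at least 185-fold higher in LPS fl/fl cells, since no resting fl/fl array was well above background (adjusted p 5.52e-08), and in +/fl cells it rose by 7.20, with 2 of 3 resting arrays above background (adjusted p 6.07e-08). The other genes with the smallest p were Sit1 and Lax1, adaptors of antigen receptor signalling, and Rasgrp1, an activator of Ras. Sit1 fell, with differences of -4.21 for fl/fl and -4.03 for +/fl cells, Lax1 with -1.93 for fl/fl and -3.07 for +/fl cells, and Rasgrp1 with -2.90 for fl/fl and -2.59 for +/fl cells, all with adjusted p of 2e-06 or less.

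Between genotypes after LPS, 4 of the 62 were higher and 0 lower in fl/fl cells, against 0.864% and 0.776% of all genes, and 53 of 62 had a difference above 0, against 54%. Cd7, a surface protein of T and NK cells, read 0.11, 0.031 and -0.14 in LPS fl/fl cells and -1.51, -1.26 and -1.46 in LPS +/fl cells, against 2.64, 1.89 and 2.60 in resting fl/fl cells and 1.69, 1.74 and 1.65 in resting +/fl cells. The difference after LPS was 1.41 (adjusted p 0.0145). Ctsw, a cathepsin of cytotoxic cells, was higher by 1.26 (adjusted p 0.0346) and Cst7, an inhibitor of cathepsins, by 1.02 (adjusted p 0.0479). S1pr5, a sphingosine phosphate receptor of NK cells, was at least 3.24-fold higher (adjusted p 0.0351), as no LPS +/fl array was well above background. All 3 fl/fl arrays exceeded all 3 +/fl arrays for 32 of the 62 genes, against 15.3% of all genes, and the reverse held for 1 gene, against 17.9%. In resting cells 2 of 62 were higher and 1 lower in fl/fl cells, where 4.66% of all genes were higher and 4.18% lower, so these calls are no more frequent than over all genes. They were Crtam, a T and NK cell adhesion receptor (1.40, adjusted p 0.0342), and Cd7 (0.68, adjusted p 0.0499), both higher, and Lax1, which was lower (-0.81, adjusted p 0.0125). No interaction passed in limma among the 62 genes, of which 46 were above 0, against 51% of all genes.

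Markers of other cells moved as well. The array median of 15 macrophage and neutrophil markers, each gene set to its mean over the 12 arrays, was 0.33, 0.046 and 0.44 in resting fl/fl cells against 2.22, 0.20 and 1.67 in resting +/fl cells. It was -0.70, -0.015 and 0.15 in LPS fl/fl cells against -0.88, -0.73 and -0.72 in LPS +/fl cells. The summed signal of these markers ranged from 16.9 to 26.1 in resting fl/fl and from 24.3 to 144 in resting +/fl cells, and from 23.9 to 85.4 in LPS fl/fl and from 14.9 to 94.5 in LPS +/fl cells, in units of the array's 75th percentile. All 15 were well above background on each resting array and 10 to 15 on the LPS arrays. Resting +/fl replicate 2, lowest for the CD3, co-receptor and NK marker lists among its group, was also the lowest for this list. Of the 15, 14 had an interaction above 0, against 51% of all genes, with a median of 2.28. The part of these cells in the differences of the T and NK genes was not tested.

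For the T cell markers the summed signal ranged from 8.99 to 10.7 in LPS fl/fl, 4.96 to 6.87 in LPS +/fl, 5.35 to 8.31 in resting fl/fl and 4.71 to 22.3 in resting +/fl cells. For the NK markers it ranged from 1.73 to 3.42 in LPS fl/fl, 0.83 to 1.22 in LPS +/fl, 9.54 to 11.9 in resting fl/fl and 10.6 to 31.1 in resting +/fl cells. These 2 lists are drawn from the 38 genes. Such sums are linear, so the brightest gene weighs most. By group mean that was Cd8b1 among the T cell markers and Gzma among the NK markers in each of the 4 groups. B cell markers fell after LPS in 7 of 10 cases in both fl/fl and +/fl cells, where 25.4% and 27% of all genes fell. Their summed signals were 340.1 to 408 in LPS fl/fl and 411 to 421 in LPS +/fl cells, against 664 to 751 in resting fl/fl and 717 to 856 in resting +/fl cells. Of the 10 B cell markers, 0 were higher and 1 lower in LPS fl/fl than in LPS +/fl cells, and 0 were higher and 2 lower in resting fl/fl than in resting +/fl cells. Of the 15 macrophage and neutrophil markers, 1 was lower in resting fl/fl than in resting +/fl cells and none passed after LPS. Over all genes 0.864% were higher and 0.776% lower after LPS, and 4.66% higher and 4.18% lower at rest. Further, 1 of 8 dendritic cell markers was higher in fl/fl cells after LPS and 1 lower at rest, 1 of 6 platelet markers was higher in fl/fl cells at rest, and none of the 5 measured erythroid markers passed, with median differences of -0.91 after LPS and -1.57 at rest. After LPS, 14 of 15 macrophage and neutrophil markers had a higher mean in fl/fl cells (median difference 0.73), against 54% of all genes. So did 6 of 8 dendritic cell (0.54), 5 of 6 platelet (0.73), 3 of 10 B cell (-0.37) and 0 of 5 erythroid markers.

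**Figure D5:**
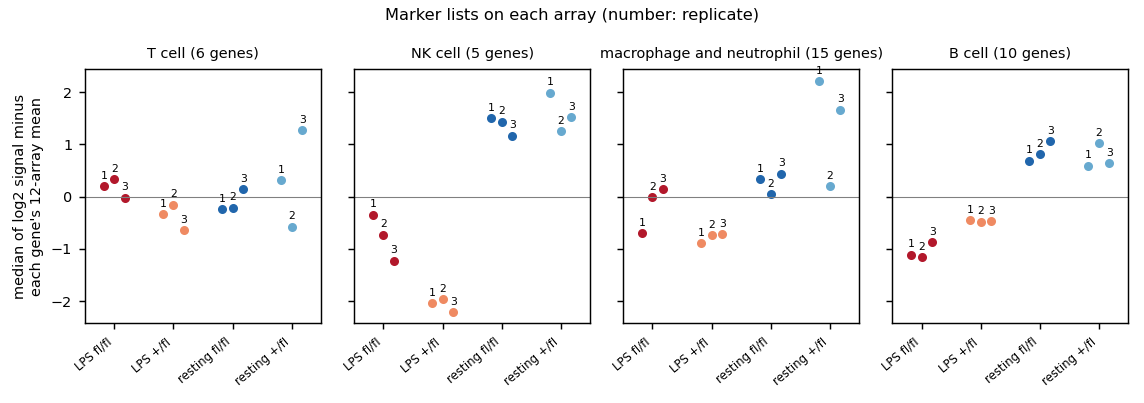
Array medians of 4 marker lists, each gene as log2 signal minus its mean over the 12 arrays; points are arrays, numbered by replicate, and the grey line is 0. NK markers are lower on all LPS than on all resting arrays, T cell markers overlap between LPS fl/fl and resting fl/fl cells, and the macrophage and neutrophil list is highest on resting +/fl replicates 1 and 3.

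The start sites of the genes were compared by sequence. RefSeq's table of promoters (GRCm38.p6) held 27 of the 38 genes, and 9 short motifs were searched on both strands in the 250 bases before each start. The RUNX core TGTGGT was picked out after the counts were seen: it stood before 15 of 27 genes, or 55.6%, against 15.9% of 27025 genes. RUNX factors are known regulators of T and NK cell genes. By role it was found in 4 of 5 NK receptors, 4 of 5 cytotoxic genes, 4 of 6 kinases and adaptors, 2 of 2 surface genes, 1 of 2 secreted factors, 0 of 4 CD3 genes, 0 of 2 T-box genes and 0 of 1 co-receptors. The ETS core GGAAGT stood before 13 of 27 genes, against 22.2% of all, the T-box core GGTGTG before 8, against 18.3%, and an NF-kB motif before 0, against 1.65%. A match is a description and not a binding site. The 250 bases before Ncr1, 1 of 2 listed starts, and Gzmb are shown as examples with 2 matches each. Ncr1 is on the plus strand at chr7:4337465-4337714 and Gzmb on the minus strand at chr14:56262335-56262584; both run 5′ to 3′ toward the start, and capitals mark TGTGGT or its reverse complement.
Ncr1: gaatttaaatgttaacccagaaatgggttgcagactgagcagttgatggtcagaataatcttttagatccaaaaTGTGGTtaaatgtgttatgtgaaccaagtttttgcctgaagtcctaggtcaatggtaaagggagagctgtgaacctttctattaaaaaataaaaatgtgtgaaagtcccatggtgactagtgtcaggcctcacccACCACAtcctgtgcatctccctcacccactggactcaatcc
Gzmb: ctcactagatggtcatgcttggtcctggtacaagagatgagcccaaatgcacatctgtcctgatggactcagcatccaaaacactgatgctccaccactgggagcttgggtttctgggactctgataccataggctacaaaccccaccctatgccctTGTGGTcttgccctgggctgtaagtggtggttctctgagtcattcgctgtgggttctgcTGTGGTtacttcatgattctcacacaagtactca
The matches begin 176 and 41 bases before the start of Ncr1, and 93 and 34 bases before that of Gzmb.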

How the data were processed

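The 12 one-colour Agilent 4x44k mouse arrays (Cy3 label, probe positions on mm7) were read from the scanner output. The deposited values used are intensity on a linear scale, the processed signal that Feature Extraction makes after background subtraction, per the file headers. A table of processed values from the authors, also linear intensity, had column medians of 30.9 on every array, and the sources used here do not give its normalization. Its Spearman correlation with the scanner signal was 0.9999 to 1 on each array, it runs the same way, and it served as an alternative. Feature Extraction was version 9.5.3.1 in the headers and 9.1 in the submitters' processing notes.

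Values were log2 of the signal minus the array's 75th percentile. Spots marked as outliers were left out, which removed 87 probes, and replicate spots were averaged. A probe was kept if 3 or more of the 12 arrays measured it well above background (25677 of 41174 probes, 54 of the 58 for the 38 genes, none saturated). The brightest probe stood for its gene. Of all probes 22951 were named by accession, 6659 by current and 3109 by older symbol through RefSeq's mouse gene table, and 8455 kept the file's name. Skap1 is Scap1 on the array. Of 15 genes with several probes, 11 to 14 had probes of 1 sign, depending on the comparison; Cd8b1, Trat1, Thy1 and Nkg7 did not in at least 1.

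With limma 3.58.1 (R 4.3.3) a mean was fitted for each of the 4 groups, with moderated variances and Benjamini-Hochberg adjustment over 17134 genes at 0.05. The code was tested on simulated data. The replicate numbers did not pair arrays: 18 same-numbered pairs correlated at -0.15 to 0.13, and 0 arrays correlated best with their own number.

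The 38 genes, their roles and the other lists were chosen with earlier results of these data known. The rule for named genes was that array values are given for genes past the threshold in at least 1 comparison and for Cd3d, Cd3e, Cd3g, Cd4, Cd8a, Cd8b1, Ncr1 and Klrb1c, and that the 4 genes with the smallest p among those past it are named from the wider list. Alternatives were quantile normalization, scaling to the array median, normexp background correction (offset 50) as it came and with local backgrounds over 2 times the array median set to that median, the deposited table, no filter or all 12 arrays above background, a block for slide or for replicate number, a fit to the 6 arrays compared, the mean over probes, trended robust variances, an adjusted p of 0.01, and leaving out arrays.

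At the Ebf1 probe for NM_007897 the levels were 1.14, 1.33 and 1.26 in LPS fl/fl, 1.21, 1.06 and 1.10 in LPS +/fl, 1.84, 1.70 and 1.74 in resting fl/fl and 0.78, 1.42 and 1.22 in resting +/fl cells. At a second Ebf1 probe, for AK036716, they were -4.35, -4.14 and -4.59 in LPS fl/fl, -2.61, -4.67 and -3.05 in LPS +/fl, -4.18, -4.22 and -4.99 in resting fl/fl and -2.41, -2.15 and -3.13 in resting +/fl cells. The second probe was thus lower in every resting fl/fl than in every resting +/fl array, with overlap after LPS, and the first was not lower. Where either probe lies relative to the loxP sites is unknown here, so they give opposite readings at rest that the labels do not settle.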

Additional observations from a re-analysis of the deposited data

Results flagged for a closer look

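For 4 of the 38 genes every LPS fl/fl array lay above the mean of resting fl/fl cells while every LPS +/fl array lay below the mean of resting +/fl cells. The share of all genes with this pattern was not counted, so the 4 may be no more than that share. The interaction, the LPS response of fl/fl minus that of +/fl cells, was 0.79 for Cd247 (adjusted p 0.362), 2.02 for Cd8a (adjusted p 0.155), 1.80 for Cd8b1 (adjusted p 0.216) and 0.73 for Cd6 (adjusted p 0.545). None of the 4 passed this test of the difference in limma. The pattern rested on resting +/fl replicate 3: without that array it held for 0 of 38 genes, and the interaction was 0.37 for Cd247 (adjusted p 0.555), 1.48 for Cd8a (adjusted p 0.213), 1.19 for Cd8b1 (adjusted p 0.296) and 0.068 for Cd6 (adjusted p 0.916).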

How the results depend on the processing

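None of the medians and counts of called genes changed direction in the alternatives tried, except the resting genotype median when 1 array was left out. The median after LPS between genotypes (0.86) was 0.34 with scaling to the array median, 0.39 with normexp, 0.48 with the repaired normexp, 0.46 with a block for slide, and 0.36 with that block after leaving out LPS fl/fl replicate 2. The interaction median (0.84) was 0.30, 0.46, 0.46 and 0.48 with median scaling, normexp, the slide block and the slide block without that array. The median response of +/fl cells (-1.53) was -0.98 with normexp and -1.21 with the repaired normexp. Of the 38 genes, the number past the threshold after LPS between genotypes (1) was 0 with quantile normalization, median scaling, the deposited table, no filter, the slide block with or without LPS fl/fl replicate 2, the replicate block, an adjusted p of 0.01, and without resting +/fl replicate 3 and LPS +/fl replicate 1, which carry 1 number in their sample names. It was 2 with either normexp (Lat and Ccl5) and 5 with all 12 arrays above background (Lat, Skap1, Txk, Klrd1 and Eomes), in both cases without Klrk1. With trended robust variances it was 6, those 5 and Klrk1. In resting cells (0) it was 2 with either normexp (Klrg1 and Prf1), and 1, Klrg1, with all 12 arrays above background and with trended robust variances. The interaction (0) had 1, Skap1, with trended robust variances. Leaving out each array in turn gave 14 to 22 genes for the response of fl/fl cells, 24 to 33 for +/fl cells, 0 to 2 after LPS, 0 to 4 at rest and 0 to 1 for the interaction. Medians then ran from -0.66 to -0.32, -1.84 to -1.39, 0.73 to 1.03, -0.38 to 0.094 and 0.77 to 1.23 in that order. The share of all genes past the threshold in each alternative is not given here. The counts of genes past it in the alternatives therefore cannot be set against all genes. Single calls kept their direction: 710 of 753 checks in +/fl cells and 444 of 484 in fl/fl cells stayed past the threshold. The replicate block, for numbers that did not pair arrays, gave 17 genes in fl/fl, 28 in +/fl, 0 after LPS, 0 at rest and 0 for the interaction. Median scaling moved all genes alike (all-gene medians -0.48 after LPS and -0.53 for the interaction), so that the gap of the 38 genes to all genes stayed at 0.82 and 0.83. That gap was 0.41 and 0.50 with normexp and 0.42 and 0.45 with the slide block, after LPS and for the interaction; the cause was not tested. Signal near background limits Cd160, Klrk1, Trat1 and Ubash3a after LPS.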
